A study of Mus musculus with 4 samples.

Results

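Notch signaling passes between neighboring cells. A ligand of the Jagged or Delta-like family on a cell binds a Notch receptor on its neighbor, the receptor is cut by an ADAM protease and then by gamma-secretase, and the freed intracellular domain joins the DNA-binding protein RBPJ to switch on target genes, among them the Hes and Hey repressors. In the mammary gland the pathway is known for its part in the luminal lineage, and Notch4 was first found as an insertion site of mouse mammary tumor virus (MMTV) in mammary tumors. The genes described are the receptors Notch1, Notch2, Notch3 and Notch4, the ligands Jag1, Jag2, Dll1 and Dll4, and the target genes Hes1 and Hey1. They were chosen by name, with earlier results of these data known. All 10 had a probe set annotated to them alone, of 19946 genes with such a probe set on the array. Another 6 probe sets were annotated to Notch4 together with Sympk and were kept out of the counts.

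RNA was measured on Affymetrix mouse gene arrays in 4 clonal cell lines of FVB Tg MMTV/neu origin, with 1 array for each line. All were derived from a spontaneous mammary tumor of a female that carried rat ErbB2 (neu) under the MMTV promoter, which is active in mammary tissue. The epithelial clones E1 and E2 came from cells sorted for high neu and high CD24 and were grown in RPMI with 20% fetal bovine serum. The mesenchymal-like clones M1 and M2 came from cells low in neu and CD24 and were grown in MEGM, a mammary epithelial medium with epidermal growth factor, insulin, hydrocortisone and bovine pituitary extract, with 2% serum. Cell type and medium therefore cannot be told apart. Each line is 1 clone with no repeat array and no treatment. A p-value therefore rests on the spread between lines, which holds clone differences and array error together. The number of arrays limits every estimate. In the study, M1 did not form tumor and the other lines did. Whether the arrays were run before or after the reporter genes were introduced is not given in the sources used here.

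The deposited values are normalized log2 expression levels, and a difference of 1 on this scale is a 2-fold difference. Median levels of the arrays lay between 6.75 and 6.85, and the values were used as deposited. No background value was given for these arrays. Folds below divide deposited values, and they may be smaller than the change in transcripts for a gene that is near background in either type. The labels were checked with markers. Of 12 epithelial genes, 7 were higher in the epithelial lines and 0 lower, with Cdh1 (E-cadherin) at 12.15 and 12.31 in E1 and E2, and 6.70 and 6.51 in M1 and M2. Of 10 mesenchymal genes measured, 4 were higher in the mesenchymal-like lines and 0 lower. Zeb1 was at 7.49, 6.96, 10.99 and 10.64 in the same order. Vim (vimentin) was high in all 4 lines and not called, at 12.79, 13.10, 13.72 and 13.82 (limma adjusted p = 0.0896). Fn1 overlapped between the types, at 13.57, 12.74, 13.36 and 13.27. The keratin gene Krt8 was at 13.27, 13.60, 13.44 and 13.69, high in all 4 lines. Of 9 luminal mammary genes 2 were called, both higher in the epithelial lines. Esr1 lay the other way, at 6.58, 6.61, 8.59 and 7.45 (limma adjusted p = 0.205), and Gata3 was even, at 11.60, 11.79, 11.43 and 11.77. Of 8 basal and of 8 immune genes 0 were called, with none of either list at an unadjusted p under 0.05. Over all probe sets 3.73% were called and 18.0% were at an unadjusted p under 0.05, the shares to set beside these counts. The macrophage gene Lyz2 was at 5.08, 5.65, 8.91 and 6.57 (limma adjusted p = 0.283) and Cd68 at 10.66, 8.77, 10.59 and 11.60 (0.484), with Ptprc, which marks all leukocytes, between 5.51 and 5.88. The part of these genes in the results was not tested.

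Of the 10 Notch genes, 4 differed between the types, epithelial and mesenchymal-like, by limma at an adjusted p under 0.05. Over all 23410 probe sets tested, 3.73% were called. Higher in the epithelial lines were the target gene Hey1, the ligand Dll1 and the receptor Notch3, and lower was the receptor Notch4. The probe sets called higher in the epithelial lines made up 2.02% of all, and those called lower 1.72%. The median difference over the 10 genes was 0.96 on the log2 scale, epithelial minus mesenchymal-like, and -0.00 over all probe sets. The levels of the pair of epithelial lines did not overlap those of the mesenchymal-like pair in 9 of the 10 genes, against 48.0% of all probe sets. The genes were chosen with earlier results of these data known, so the counts beside these shares are no test. All 4 calls were lost without E1 and without E2, where limma called 0 of all probe sets (2579 and 2651 at an unadjusted p under 0.05). Of the 4, only Hey1 was still called when values below the median of the table were raised to it. The same held with the clone number as a replicate block. Clone numbers do not pair the lines, and with this block 319 of all probe sets were called in place of 874.

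**Figure D1:**
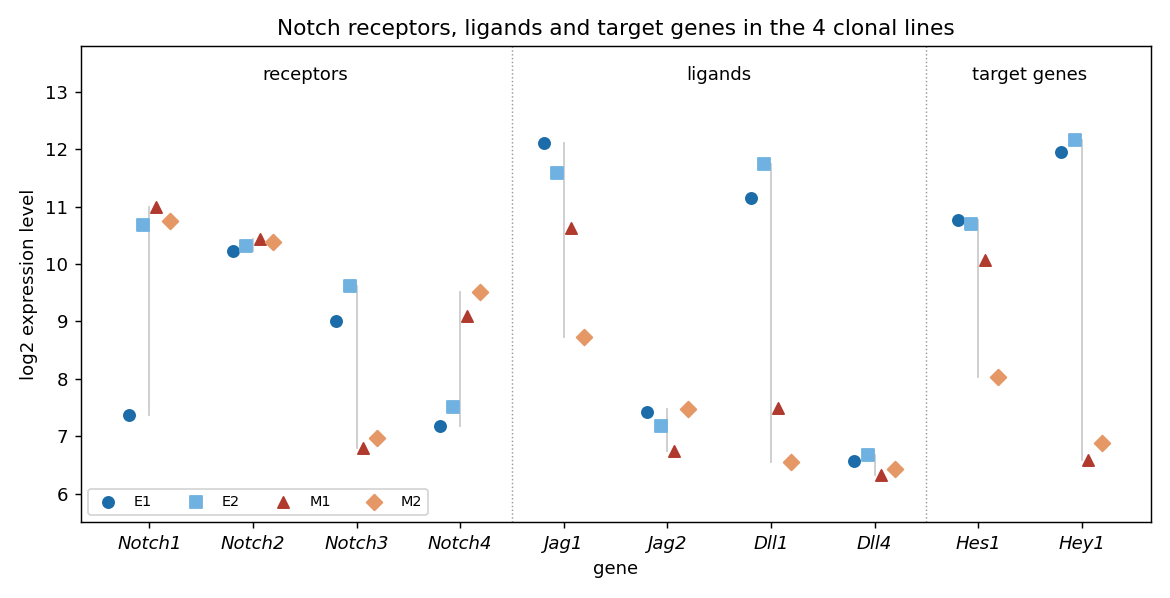
Points give the log2 expression level of each Notch gene (vertical axis) in E1, E2, M1 and M2, 1 array per line, with the genes grouped by role on the horizontal axis and a grey line from the lowest to the highest line. Hey1 is at 11.95 and 12.16 in the epithelial lines and 6.58 and 6.89 in the mesenchymal-like lines, while Notch1 is low in E1 alone, at 7.37. Heights are not comparable between genes.

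Among the receptors, Notch1 had its widest gap between clones of the same type. Notch1, a receptor broadly used in epithelia, had log2 levels of 7.37 and 10.68 in E1 and E2, and of 11.00 and 10.74 in M1 and M2. E1 was thus 3.31 below the next line, a 9.88-fold difference, and the other lines lay close together. The gap between E2 and E1 ranked 42 among the 23410 probe sets by size. Its mean was 9.03 ± 2.34 (SD, n = 2) in the epithelial and 10.87 ± 0.18 (SD, n = 2) in the mesenchymal-like lines. The difference between the types was -1.84 (95% interval -5.14 to 1.46, limma adjusted p = 0.552), which does not pass. It was -0.19 without E1 and -3.50 without E2 (limma adjusted p = 0.892 and 0.0756). A single array of E1 gives no measure of the error of its low level.

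Notch2 was even across the lines, at 10.23, 10.32, 10.44 and 10.39 in E1, E2, M1 and M2. Its difference between the types was -0.14 (95% interval -0.44 to 0.16, limma adjusted p = 0.629). The interval leaves out any difference of 2-fold or more in either direction.

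Notch3, the receptor best known from smooth muscle and from luminal progenitors of the mammary gland, was at 9.01 in E1 and 9.62 in E2, and at 6.79 in M1 and 6.98 in M2. The epithelial lines were higher without overlap, by 2.43 on the log2 scale or 5.39-fold (standard error 0.25, limma adjusted p = 0.0266). Between clones of the same type it differed by 0.61 (E2 minus E1) and -0.18 (M1 minus M2). The call was lost with the clone number as a replicate block (adjusted p = 0.0627 by limma). Of the 7 other markers of pericytes and smooth muscle 0 were called, and 1 was at an unadjusted p under 0.05, the muscle filament gene Des, which lay the other way from Notch3, at 6.04 and 6.28 in E1 and E2 and 7.88 and 6.84 in M1 and M2. The others were even, with the pericyte gene Rgs5 at 5.25, 5.02, 5.14 and 5.28 and Myh11, the smooth muscle myosin, at 6.77, 6.93, 6.57 and 6.83 in E1, E2, M1 and M2.

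Notch4, a receptor best known from endothelium, went the other way. It was at 7.18 in E1 and 7.51 in E2, and at 9.09 in M1 and 9.52 in M2. The mesenchymal-like lines were higher without overlap, by 1.96 or 3.89-fold (epithelial minus mesenchymal-like -1.96, standard error 0.22, limma adjusted p = 0.0314). With all 35556 probe sets of the table tested, the adjusted p was 0.0517 by limma, and with the replicate block 0.0510. Of 10 endothelial markers 0 were called, with 1 at an unadjusted p under 0.05. The median level of the list was 5.79 and 5.91 in E1 and E2 and 5.80 in M1, and it was highest in M2. Its defining genes were low and even, with Pecam1 at 5.83, 5.90, 5.74 and 5.88, Kdr between 5.51 and 5.92 and Tek between 5.09 and 5.25. Cdh5 (VE-cadherin) was at 5.99, 6.15, 7.58 and 6.72 in E1, E2, M1 and M2, higher in the mesenchymal-like lines as Notch4 was (limma adjusted p = 0.216), and its part in the result was not tested.

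The 6 probe sets annotated to both Notch4 and Sympk, a gene of mRNA 3' end processing, were also lower in the epithelial lines. Their differences ran from -0.86 to -1.20, epithelial minus mesenchymal-like, but the widest step lay elsewhere. In each of them M2 was the highest line, by 1.41 to 1.61 above M1 and by 1.62 to 1.83 above the mean of E1, E2 and M1. In the probe set of Notch4 alone M2 was highest by 0.43. A pair of the 6 held identical values, and in that pair alone the types overlapped. None of the 6 was called between the types (limma adjusted p from 0.411 to 0.577, none at an unadjusted p under 0.05). Of the 3 probe sets annotated to Sympk alone, an identical pair was at 10.01 and 10.82 in E1 and E2 and at 10.88 and 12.14 in M1 and M2, highest in M2 again, and the remaining one was at 11.15, 10.94, 10.84 and 10.53. The annotation therefore does not settle which transcripts these shared probe sets read. The level of Notch4 given above rests on its own probe set alone.

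**Figure D2:**
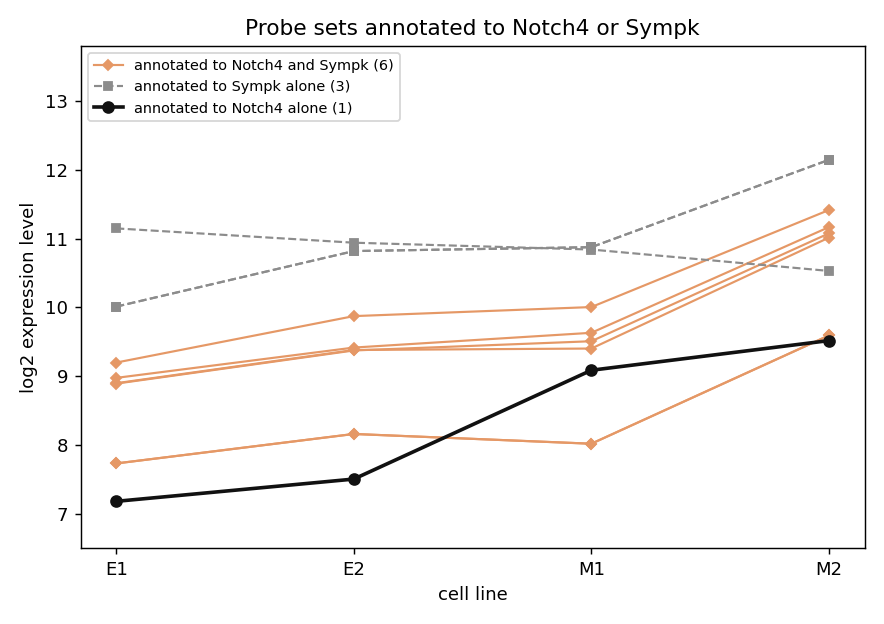
Each line joins the log2 expression levels (vertical axis) of 1 probe set in the 4 cell lines (horizontal axis). The probe set annotated to Notch4 alone, in black, steps up from 7.51 in E2 to 9.09 in M1, whereas the 6 probe sets annotated to Notch4 and Sympk, in orange, step up between M1 and M2. The 3 probe sets annotated to Sympk alone are in grey, and an identical pair of them lies on the same line.

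The ligands differed from each other. Dll1, a Delta-like ligand that is expressed in mammary stem and basal cells, was at 11.14 in E1 and 11.74 in E2, and at 7.48 in M1 and 6.54 in M2. The epithelial lines were higher by 4.43 on the log2 scale or 21.5-fold (standard error 0.41, limma adjusted p = 0.0210). M1 and M2 differed by 0.94. With the replicate block the adjusted p of Dll1 was 0.104 by limma.

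Jag1, a Jagged ligand, had a different level in each line, at 12.12 and 11.59 in E1 and E2, and 10.63 and 8.72 in M1 and M2. M2 was 1.90 below M1, a 3.74-fold difference and rank 394 of 23410 by size. The types did not overlap, but the spread between M1 and M2 was large, and the difference of 2.18 (95% interval 0.20 to 4.16, limma adjusted p = 0.239) does not pass. Without M1 it was 3.13 and passed (limma adjusted p = 0.0150), a fit that called 7.52% of all probe sets and in which M2 stands alone for its type and is assumed to vary like the epithelial pair. Without M2 it was 1.23 and did not pass (limma adjusted p = 0.0997).

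Jag2 and Dll4 did not pass between the types. Jag2, the other Jagged ligand, was at 7.43, 7.19, 6.74 and 7.47 in E1, E2, M1 and M2, and was the single gene of the 10 in which the types overlapped (difference 0.20, 95% interval -0.61 to 1.02, limma adjusted p = 0.826). Its direction turned without M1, to -0.16. Dll4, a Delta-like ligand best known from sprouting endothelium, was at 6.57, 6.66, 6.31 and 6.43 (difference 0.24, 95% interval -0.08 to 0.56, limma adjusted p = 0.401). All 4 values of Dll4 were below 6.78, the median of all values in the table.

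The target genes behaved differently from each other. Hey1, a transcriptional repressor, was at 11.95 in E1 and 12.16 in E2, and at 6.58 in M1 and 6.89 in M2. The difference of 5.32 on the log2 scale, or 39.9-fold (standard error 0.17, limma adjusted p = 0.00284), was the largest of the 10 and ranked 52 of 23410 probe sets by size. Clones of the same type lay within 0.31 of each other. Hes1, a related repressor, was at 10.76 and 10.70 in E1 and E2, and 10.08 and 8.03 in M1 and M2. M2 was 2.05 below M1, a 4.13-fold difference and rank 343 of 23410 by size. The difference of Hes1 between the types was 1.67 (95% interval -0.37 to 3.72, limma adjusted p = 0.369). Without M1 it was 2.70 and without M2 it was 0.65, fits in which the remaining mesenchymal-like line stands alone for its type. Hes1 and Jag1 therefore had the same order of lines, E1, E2, M1 and M2 from high to low, with the widest step before M2. For Hes1 the order of E1 and E2, 0.06 apart, and for both genes the size of the step rest on single arrays.

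**Figure D3:**
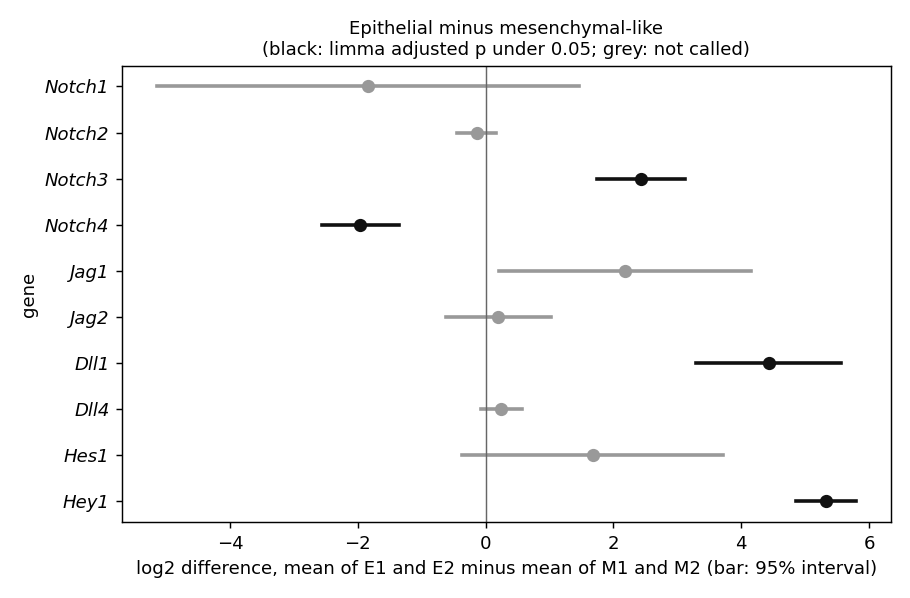
Points give the log2 difference between the mean of E1 and E2 and the mean of M1 and M2 (horizontal axis) for each Notch gene (vertical axis), with the 95% interval of the limma fit as a bar. The black bars are the 4 called genes, Notch3, Dll1 and Hey1 to the right of 0 and Notch4 to the left. The grey bars of Notch1, Jag1 and Hes1 are wide because clones of 1 type differed.

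Between clones of the same type, 1 of the 10 genes differed by at least 2-fold between E2 and E1, against 2.24% of all probe sets. It was Notch1, higher in E2 as 1.25% of all were. Between M1 and M2 it was 2 of 10, Jag1 and Hes1, against 5.86%. Both were higher in M1, as 3.22% of all were. Dll1, at 0.94, was just under 2-fold, and the count was 3 with quantile normalization or median centring. Across types the counts were 6 of 10 for M1 against E1 (background 11.2%), 4 for M1 against E2 (10.9%), 7 for M2 against E1 (10.6%) and 6 for M2 against E2 (10.8%). These are differences between single arrays and carry no test, and the pairs share arrays.

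**Figure D4:**
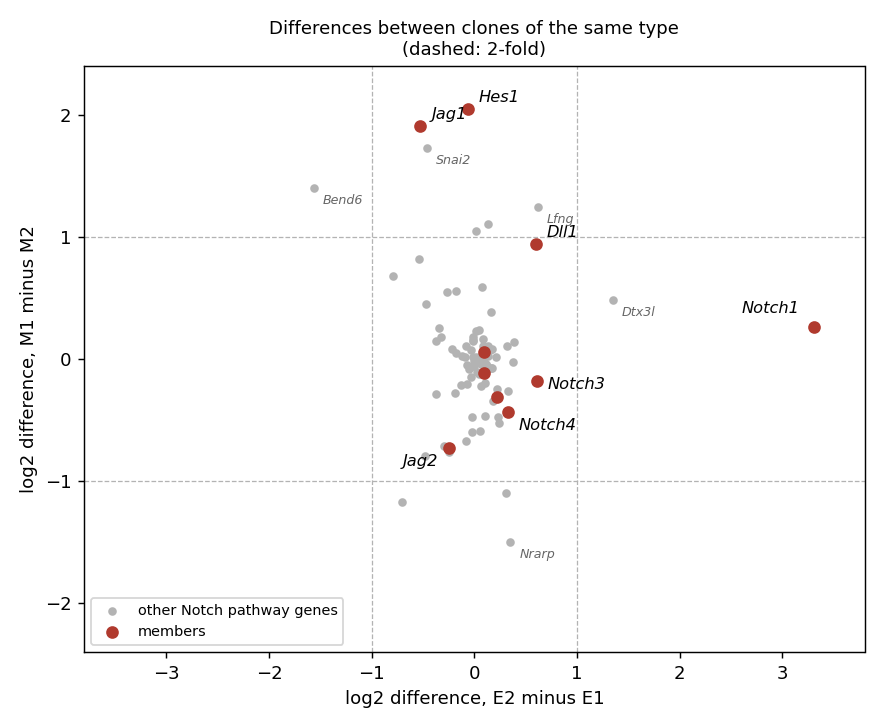
Each point is a gene, with the log2 difference of E2 minus E1 on the horizontal axis and of M1 minus M2 on the vertical axis. Red points are the 10 Notch genes and grey points the other 76 pathway genes; dashed lines mark 2-fold. Notch1 lies far to the right at 3.31, and Hes1 and Jag1 lie at the top at 2.05 and 1.90.

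M1, the line that did not form tumor, was set against E1, E2 and M2. None of the 10 genes was called by limma, and 0.0940% of all probe sets were. At an unadjusted p under 0.05 it was 1 of 10, against 7.01% of all probe sets, a count near the background. That gene was Jag2. Its level was 6.74 in M1, against 7.36 ± 0.15 (SD, n = 3) over E1, E2 and M2, a difference of -0.62 (95% interval -1.14 to -0.10, limma adjusted p = 0.628). For Hey1, Dll1 and Notch3 the differences were -3.75, -2.33 and -1.74 with adjusted p of 0.885, 0.909 and 0.885 by limma. In these genes both epithelial lines lay above both mesenchymal-like lines. The spread over E1, E2 and M2 therefore holds the difference between the types (SD 2.98, 2.84 and 1.38, n = 3). A high adjusted p in this fit does not show that M1 was like the other lines. Jag1 and Hes1 stood between the epithelial lines and M2, with differences of -0.18 and 0.25. Notch4 differed by 1.02 and Notch1 by 1.40, with E1, the low line for Notch1, among those M1 was set against. Without E1 the value of Notch1 was 0.29. Without M2, M1 was compared with the epithelial lines alone and 4 genes were called, Notch3, Notch4, Dll1 and Hey1, where 8.03% of all probe sets were. In that fit M1 is a lone array and the spread comes from E1 and E2.

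The sequences before the starts of Notch3, Notch4 and Dll1 are shown because these genes differed between the types. The sequences are the 250 bases before each RefSeq start on the gene's strand, 5′ to 3′, from build GRCm38.p6. Capitals mark any of 4 motifs on either strand: GTGGGAA, bound by RBPJ, CAGGTG, an E-box bound by Zeb and Snail factors, and CACGTG and CACGCG, bound by Hes and Hey proteins. RefSeq windows were found for 8 of the 10 genes, without Hes1 and Hey1.
Notch3, chr17:32166891-32167140, minus strand: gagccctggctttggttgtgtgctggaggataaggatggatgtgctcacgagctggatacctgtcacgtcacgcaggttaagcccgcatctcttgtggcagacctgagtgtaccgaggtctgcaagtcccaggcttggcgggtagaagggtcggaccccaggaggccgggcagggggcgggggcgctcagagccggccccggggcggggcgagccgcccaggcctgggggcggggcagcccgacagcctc
Notch4, chr17:34564045-34564294, plus strand: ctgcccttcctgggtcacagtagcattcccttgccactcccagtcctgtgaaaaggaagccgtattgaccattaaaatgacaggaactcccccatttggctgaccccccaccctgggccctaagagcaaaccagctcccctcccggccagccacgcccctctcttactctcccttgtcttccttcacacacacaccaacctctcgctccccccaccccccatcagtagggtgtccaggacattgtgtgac
Dll1, first listed start, chr17:15375824-15376073, minus strand: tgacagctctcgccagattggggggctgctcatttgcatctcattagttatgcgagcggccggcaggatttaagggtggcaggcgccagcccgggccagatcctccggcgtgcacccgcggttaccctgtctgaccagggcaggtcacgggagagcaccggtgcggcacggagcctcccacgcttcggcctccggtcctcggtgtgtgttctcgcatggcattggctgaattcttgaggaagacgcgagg
Dll1, second listed start, chr17:15376933-15377182, minus strand: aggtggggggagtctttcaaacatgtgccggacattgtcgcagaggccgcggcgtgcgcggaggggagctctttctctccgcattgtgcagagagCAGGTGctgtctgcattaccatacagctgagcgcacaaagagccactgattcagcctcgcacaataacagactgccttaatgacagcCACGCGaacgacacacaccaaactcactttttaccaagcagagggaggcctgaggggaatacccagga

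In these windows CAGGTG was found for 1 of the 8 genes, Dll1, 155 bases before its second listed start, and it occurs in 17.2% of all 32851 windows of the same length. CACGCG was found for 4, Notch2, Jag1, Dll1 and Dll4, and occurs in 7.62% of windows. In Dll1 it lies 68 bases before the second listed start. GTGGGAA and CACGTG were found for 0 of the 8 and occur in 5.42% and 6.02% of windows. The counts are of genes with a match in any of their windows, while the percentages are of windows. The units differ for a gene such as Dll1, which has more than 1 window. The windows of Notch3 and Notch4 held none of the 4 motifs. A match is a run of letters and not a measured binding site, and the absence of a match concerns these windows alone.

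Of 81 other genes of the pathway, 76 had a probe set of their own, and 1 of them was called between the types, against 3.73% of all probe sets, with 19 at an unadjusted p under 0.05. Over all probe sets 18.0% were at an unadjusted p under 0.05, which is the share to set beside that count and beside those of the lists below. The called gene was Pofut1, the enzyme that adds O-fucose to Notch receptors and so prepares them for ligand binding. It was at 8.34 and 8.32 in E1 and E2, and 9.36 and 9.20 in M1 and M2, lower in the epithelial lines by 0.95 on the log2 scale (epithelial minus mesenchymal-like -0.95, standard error 0.12, limma adjusted p = 0.0401). The call was lost under 8 of 12 alternatives: centring on the median (0.0644), the raised floor (0.123), all probe sets tested (0.0693), an intensity trend (0.0801), the replicate block (0.125), and without E1 (0.267), E2 (0.275) or M1 (0.0523), all adjusted p by limma. The median difference over the 76 genes was -0.02, and the types did not overlap in 40 of them, against 48.0% of all probe sets.

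Of 8 glycosylation genes, Pofut1 was the called one, and 4 were at an unadjusted p under 0.05. The Fringe enzymes extend the O-fucose and so change which ligands a receptor answers. Lfng was at 6.56, 7.17, 9.31 and 8.07 in E1, E2, M1 and M2. The mesenchymal-like lines were higher without overlap (difference -1.82, standard error 0.50, limma adjusted p = 0.183). Without M2 the difference was -2.44, and without M1 it was -1.2. Rfng differed by -0.40 (limma adjusted p = 0.188), and the xylosyltransferase Xxylt1 was at 9.08, 8.62, 9.83 and 9.38. The window of Lfng is shown because it was the glycosylation gene with the widest difference and held RBPJ and Hes motifs, a choice made after its values were seen. The CACGTG at 112 bases and the GTGGGAA at 109 bases before the start overlap, and CACGCG stands at 55 bases on the opposite strand.
Lfng, chr5:140607091-140607340, plus strand: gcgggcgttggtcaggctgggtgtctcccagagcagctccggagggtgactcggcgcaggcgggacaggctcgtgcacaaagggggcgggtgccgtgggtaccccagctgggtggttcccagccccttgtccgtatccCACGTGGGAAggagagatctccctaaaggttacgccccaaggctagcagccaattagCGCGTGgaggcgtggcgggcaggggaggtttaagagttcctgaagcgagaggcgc

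Of 9 genes that cleave and mature the receptor, 0 were called and 1 was at an unadjusted p under 0.05. That one was Adam10, the main protease of ligand-bound Notch, at 11.72, 11.77, 11.47 and 11.23 (limma adjusted p = 0.248). Adam17 was at 11.45, 10.98, 10.19 and 10.98, lowest in M1, with a difference of M1 from the other lines of -0.95 (limma adjusted p = 0.623). The gamma-secretase subunits Aph1a and Aph1b differed between the types by -0.16 (-0.15 in a second probe set) and -0.09, and the sign of Aph1b turned to 0.10 without E2 and to 0.05 without M2. Of 8 other ligands 0 were called and 1 was at an unadjusted p under 0.05. The inhibitory ligand Dlk2 was at 7.40, 7.47, 7.85 and 7.88 (difference -0.43, limma adjusted p = 0.151). Dner, Egfl7 and Cntn1 differed by -0.19, -0.11 and 0.08.

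Of 9 genes of ligand endocytosis and the Deltex family, 0 were called and 1 was at an unadjusted p under 0.05. Neurl1b, an E3 ligase that acts on Notch ligands, was at 8.21, 8.23, 9.77 and 8.72 in E1, E2, M1 and M2, highest in M1, and a second probe set was at 7.29, 7.41, 8.23 and 7.74. The first probe set differed between the types by -1.02 (limma adjusted p = 0.298). Its difference was -1.55 without M2 and -0.50 without M1. Dtx4 was at 9.71, 10.10, 10.77 and 10.64 (difference -0.80, limma adjusted p = 0.126) and Dtx2 at 9.31, 9.28, 9.59 and 10.07. Dtx3l was at 10.03, 11.38, 9.94 and 9.46 in E1, E2, M1 and M2 (difference 1.00, limma adjusted p = 0.45). Its levels in the epithelial clones were at least 2-fold apart.

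Of 9 genes of Notch inhibition and turnover, 0 were called and 4 were at an unadjusted p under 0.05. Nrarp, a direct Notch target whose product limits the signal, was at 8.93 and 9.28 in E1 and E2, and 6.21 and 7.70 in M1 and M2. Like Hey1 it was higher in the epithelial lines without overlap, but here M1 was the lower of the mesenchymal-like pair (difference between the types 2.15, standard error 0.56, limma adjusted p = 0.164). The difference of Nrarp was 1.398 without M1, 2.895 without M2, 2.322 without E1 and 1.971 without E2. Each of these fits leaves a line alone in its type. Numbl, related to the Notch inhibitor Numb, was at 8.36, 7.57, 9.74 and 9.06. Fbxw7, which marks the Notch intracellular domain for breakdown, was at 8.18, 7.96, 7.43 and 7.35 (difference 0.67, limma adjusted p = 0.0992), and a second probe set at 4.86 and 4.66 in E1 and E2, above both mesenchymal-like lines by little (difference 0.15). Aak1, a kinase of endocytosis, differed by 0.43, and by 0.64 in a second probe set.

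Of 17 genes of the nuclear complex and its co-repressors, 0 were called and 4 were at an unadjusted p under 0.05. Rbpj itself was at 11.63, 11.55, 11.91 and 12.58, highest in M2 (difference -0.65, limma adjusted p = 0.327). Its difference was -0.99 without M1 and -0.32 without M2. A second probe set of Rbpj had values from 5.23 to 5.54. Maml3, a co-activator of the Mastermind family, was at 9.72, 10.03, 8.15 and 9.25, lowest in M1 (difference 1.18, limma adjusted p = 0.274). Its difference was 1.73 without M2 and 0.63 without M1. The co-repressor Ctbp2 was at 11.33, 11.65, 10.85 and 10.74. Bend6, which binds RBPJ and represses Notch targets, was at 8.23, 6.67, 9.33 and 7.92, with E2 lowest and M1 highest.

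Of 16 other Hes and Hey family and target genes, 0 were called and 4 were at an unadjusted p under 0.05. Snai2 (Slug), a repressor of epithelial genes, was at 6.03 and 5.57 in E1 and E2, and 11.12 and 9.39 in M1 and M2. Its difference of -4.45 (standard error 0.64, limma adjusted p = 0.0574) did not pass. It passed with quantile normalization (limma adjusted p = 0.0475), among the brighter probe sets (0.0416) and with an intensity trend (0.0409). It did not pass with median centring (limma adjusted p = 0.0643), the raised floor (0.345), all probe sets tested (0.0891), a robust spread (0.0615) or the replicate block (0.0825). The difference was -3.58 without M1, -5.31 without M2, -4.68 without E1 and -4.22 without E2. Sox9 was at 11.26, 11.36, 12.15 and 12.61 (limma adjusted p = 0.0897). Its difference was -1.07, with -1.30 without M1 and -0.83 without M2. Hes6, which opposes Hes1, was at 8.76, 8.84, 9.99 and 9.40 (limma adjusted p = 0.169). It differed by -0.89, and by -1.19 without M2 and -0.60 without M1. Myc was at 12.11, 12.49, 11.81 and 11.84. Hey2 and Heyl, the closest relatives of Hey1, did not have its pattern, and were named after their values were seen. Hey2 was at 4.97, 4.92, 4.99 and 5.07, and Heyl at 6.91, 6.78, 6.60 and 6.81. All values of Hey2 were below 6.78, the median of all values in the table, and those of Heyl lay near it. For M1 against the other lines, 0 of the 76 genes were called by limma (9 at an unadjusted p under 0.05, against 7.01% of all probe sets).

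**Figure D5:**
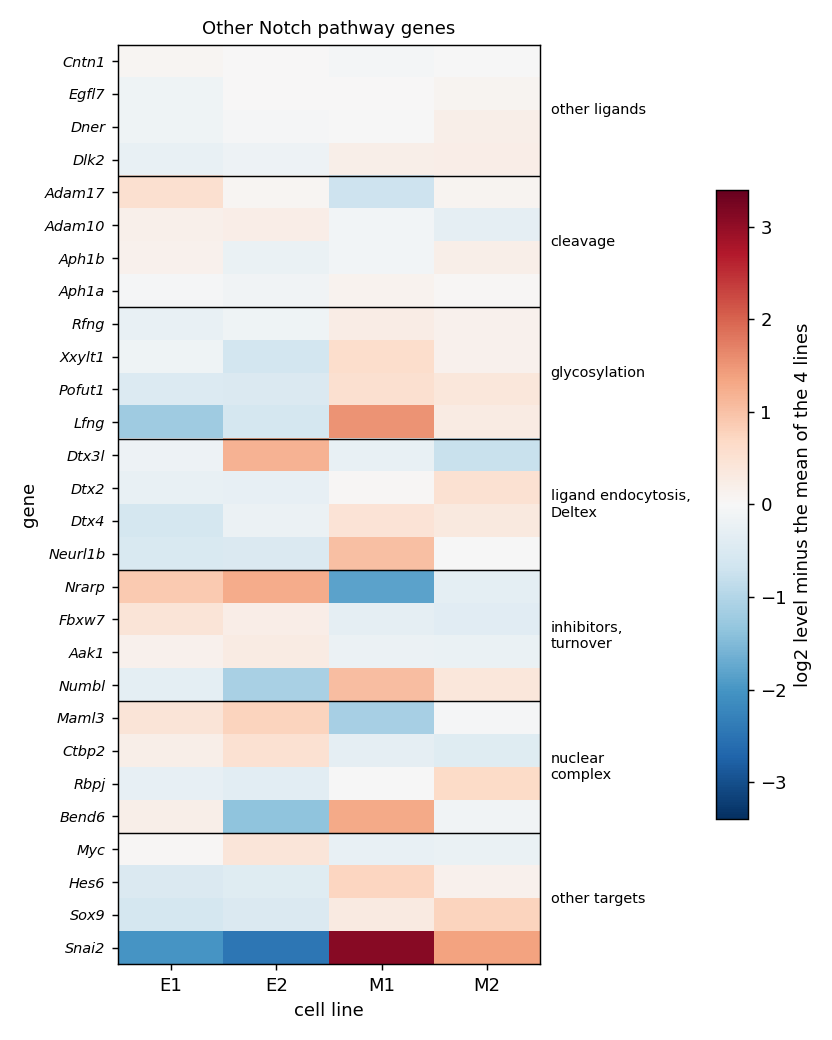
Colors give the log2 level of each named pathway gene (rows, grouped by role) in E1, E2, M1 and M2 (columns) minus the mean of the 4 lines, red above and blue below it. Snai2 has the widest range, from 5.57 in E2 to 11.12 in M1, and Nrarp and Lfng run in opposite directions.

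The profiles most like those of the 3 genes with the widest difference between the types were found by the root mean square distance over the 4 lines, after the mean of each gene was taken off. For Hey1 they were Epb41l4a, Macc1 and St14, at distances of 0.04, 0.05 and 0.10 on the log2 scale, with the membrane protease gene St14 at 12.23, 12.43, 6.64 and 7.00. For Dll1 they were Naaladl2, the interleukin subunit Il23a and the forkhead factor Foxi1, at 0.09, 0.20 and 0.21. For Notch3 they were Tmem98, Rab11fip4 and Shisa2, at 0.05, 0.06 and 0.11. With 4 lines in the comparison, many genes can share such a profile by their difference between the types alone.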

How the data were processed

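RNA of 4 cell lines was measured on Affymetrix MoGene 1.0 ST arrays. The deposited log2 values were normalized by the authors, and the labels name Partek without a version; the normalization method is not given in the sources used here. Genes were assigned by the platform's annotation, in which 23410 of 35556 probe sets carry a symbol and 21797 carry 1 alone. The gene identifiers of all 10 Notch genes had the same symbol in a later gene table. Where a gene had several probe sets, the one with the highest mean was used. The lmFit and eBayes functions of limma 3.58.1 (R 4.3.3) were run over all 23410 probe sets, with 2 residual degrees of freedom, Benjamini-Hochberg adjustment and a threshold of 0.05. For M1 against the other lines, M1 is assumed to vary like them. The fit was tested on simulated data. The members and gene lists were chosen with earlier results of these data known. Named pathway genes are those called and the 4 with the widest difference per list; any other is marked. Pathway genes without a probe set of their own were not analysed here. Alternatives were quantile normalization, median centring, the brighter probe sets alone, a floor at the median of the table, other sets of probe sets, other spread estimates, a replicate block and leaving out each line.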

Additional observations from a re-analysis of the deposited data

How the results depend on the processing

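The 10 Notch genes had 4 calls between the types, and 4 also with quantile normalization, median centring, the brighter probe sets, an intensity trend and a robust spread; they had 3 with all probe sets tested, 1 with a raised floor, 1 with the replicate block and from 0 to 6 when a line was left out (0 without E1 and without E2, 6 without M1, with Jag1 and Hes1 added). Over all probe sets the 874 calls became 223 with the raised floor, 319 with the replicate block and 0 to 1879 when a line was left out. The other pathway genes, with 1 call, had 2 with quantile normalization and 2 among the brighter probe sets, 0 with median centring, the raised floor, all probe sets tested and the replicate block, and 0 to 7 when a line was left out. For M1 against the other lines, the 22 calls over all probe sets became 40 with median centring, 0 among the brighter probe sets (966 at an unadjusted p under 0.05), 293 with the raised floor, 11 with all probe sets tested, 62 with an intensity trend and 0 to 1879 when a line was left out; the Notch genes had 0 to 4 and the other pathway genes 0 to 7 when a line was left out, with 4 and 7 without M2 alone. In that comparison the sign of Jag1 turned to 0.47 without E1 and 0.21 without E2 (range -1.23 to 0.47), and that of Hes1 to -0.65 without M2 (range -0.65 to 0.71). Between the types the sign of Jag2 turned to -0.16 without M1 (range -0.16 to 0.57) and that of Aph1b to 0.10 without E2 and 0.05 without M2 (range -0.28 to 0.10). At 4-fold in place of 2-fold, E2 and E1 differed in 138 probe sets and not 524, M1 and M2 in 358 and not 1372, and the Notch genes between M1 and M2 in 1, Hes1, and not 2 (3 with quantile normalization and with median centring). The causes of these changes were not tested. The clone numbers of the labels name clones and do not pair them: deviations of same-numbered lines had a correlation across probe sets of -0.04, and the block above is given for completeness. With 2 lines a type, a call rests on how closely the clones of each type agree. Between the types, leaving out a line leaves the other line of its type without a spread of its own. The counts from those fits are therefore not comparable with the main counts, for the listed genes as for all probe sets. Genes below the raised floor in all 4 lines, such as Dll4, had no value under it.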
